A study of Rattus norvegicus with 32 samples.

Results

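The Kruppel-like factors Klf2, Klf3, Klf4, Klf6, Klf7, Klf9, Klf10 and Klf13 were followed in RNA-seq libraries of rat liver sinusoidal endothelial cells (LSECs), the fenestrated cells that line the capillaries of the liver. Members were taken by gene symbol, and the 8 symbols matched 9 gene entries of the 32623 in each table, because Klf7 is listed under a pair of identifiers. All 9 entries passed the filter on low counts in all 7 comparisons. The 22 libraries of the carbon tetrachloride (CCl4) experiment came from Wistar Han rats and fall into healthy (n = 6), acute injury after 2 weeks of CCl4 (n = 5), fibrosis after 6 weeks (n = 5) and cirrhosis (n = 6, given by the labels as CCl4-treated, for 12 to 14 weeks by the design text). CCl4 was inhaled by male rats that also drank phenobarbital, a drug that raises the metabolism of CCl4 in the liver. A separate experiment of 10 libraries with thioacetamide (TAA), another liver toxicant, has 5 libraries labelled control and 5 labelled TAA control rat. Which of these 2 groups was given TAA is not settled by the labels, so its differences are given by label only. For the TAA rats the labels name Wistar Han and the design text names Sprague-Dawley. LSECs were separated from digested livers on an iodixanol density gradient, without a sort on a surface marker. Per the study's methods, rats given CCl4 or TAA had their LSECs isolated 5 to 7 days after the last dose. P-values here measure the spread between libraries, and the labels do not say in so many words that each library was a separate animal. The study's figure captions describe the samples of each group as independent LSEC isolations.

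Kruppel-like factors are zinc finger proteins that bind CACCC and GC-rich boxes in promoters, and they differ mainly in the part of the protein that activates or represses transcription. In endothelium, Klf2 and Klf4 are switched on by laminar flow through the kinases MEKK3, MEK5 and ERK5 and the MEF2 factors, and they maintain Nos3, the endothelial nitric oxide synthase, and Thbd, the anticoagulant thrombomodulin. Klf6 is an injury-response factor. Klf10 is induced by TGF-beta, Klf9 by glucocorticoids, and Klf3 represses transcription by recruiting CtBP proteins. Klf13 is known as an activator of the chemokine gene Ccl5 in T cells, and Klf7 for its roles in neurons and fat cells.

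The libraries held 25646531 to 46464289 expected counts each, and levels are given as CPM (counts scaled to a common library total) after TMM scaling. Levels are not compared between different genes, since CPM is not set per transcript length. A gene was called differentially expressed (DEG) at a p under 0.05 and a fold change above 1.5, and adjusted p-values are Benjamini-Hochberg values from limma over all genes tested. TMM factors were 0.712 to 0.939 in the healthy libraries and 0.989 to 1.18 in the other CCl4 libraries. Scaling to library size alone raised the median log2 fold change of all genes by 0.41 for acute, 0.40 for fibrosis and 0.35 for cirrhosis against healthy, and the values here are those with TMM. It also turned the DEGs of all genes from 5206 higher and 5145 lower to 6311 and 4085 in fibrosis against healthy, and from 4256 higher and 3802 lower to 5921 and 2393 in cirrhosis against healthy. The 2 libraries TAA control 14 and 15 differed little, with a chi-square per degree of freedom of 2.96 between them, where the most similar pair of any other group had at least 23.6. Averaging them changed no call of a member. Of 10 LSEC markers 9 were found by symbol, none at 0 in a whole group. Their summed level was 13624 to 26653 CPM in healthy, 3731 to 4489 CPM in acute, 2682 to 3558 CPM in fibrosis and 14296 to 18072 CPM in cirrhosis. Not every marker fell with the sum, as Cdh5 had 1324 to 2154 CPM in acute injury beside 775 to 1763 CPM in healthy. In bulk libraries, fewer cells of a type and less RNA per cell cannot be told apart.

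Klf2, the flow-induced factor of quiescent endothelium, fell in acute injury and fibrosis from 313 CPM or more in healthy LSECs to at most 8.001 CPM, and stood between these levels in cirrhosis in all libraries but 1. The healthy libraries had 313 CPM at the lowest, 595 CPM at the median and 808 CPM at the highest. The 5 acute libraries had 5.61, 2.75, 8.001, 1.93 and 7.14 CPM, which were 84 expected counts in the lowest library. The 5 fibrosis libraries had 6.83, 6.30, 7.85, 6.14 and 6.53 CPM. No acute or fibrosis library came near the lowest healthy one, and the fibrosis libraries lay much closer together than the acute ones (SD 0.676 CPM against 2.66 CPM). The cirrhosis libraries had 131 CPM at the lowest, 193 CPM at the median and 384 CPM at the highest, so the highest of them overlapped the healthy range and the others lay below it.

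Klf2 (ENSRNOG00000014205) was 124-fold lower in acute injury than in healthy LSECs (log2 fold change -6.95, SE 0.41, adjusted p = 2.907e-08). In fibrosis it was 78.2-fold lower (log2 fold change -6.29, SE 0.30, adjusted p = 7.652e-09). Of all genes tested, 1.19% fell at least as far as Klf2 in acute injury and 0.653% in fibrosis, so few transcripts were reduced as strongly. In cirrhosis the difference from healthy was 2.71-fold (log2 fold change -1.44, SE 0.30, adjusted p = 0.001661), and 6.52% of genes fell at least as far. Cirrhosis was 29.9-fold above fibrosis (log2 fold change 4.90, SE 0.30, adjusted p = 2.525e-08) and 46.8-fold above acute injury (log2 fold change 5.55, SE 0.43, adjusted p = 1.375e-07). Fibrosis and acute injury did not differ by the thresholds (log2 fold change 0.72, 95% interval -0.06 to 1.49, adjusted p = 0.1682), although leaving out acute replicate 3 (0.93, adjusted p = 0.08132) or 8 (0.88, adjusted p = 0.07495) brought an unadjusted p under 0.05. The order of the group means was healthy, cirrhosis, fibrosis and acute injury, and the last pair of neighbours did not differ beyond their spread. The comparisons against healthy share the same 6 healthy libraries and are not independent of each other.

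Klf4, the other flow-responsive factor and a partner of Klf2 in endothelium, also fell in acute injury and fibrosis, but its level in cirrhosis was in the healthy range or above it. The healthy libraries spread widely, from 196 CPM through a median of 447 CPM to 1292 CPM. The acute libraries had 68.7, 57.2, 81.1, 41.2 and 121 CPM. In fibrosis the 5 libraries had 126, 131, 103, 95.1 and 99.9 CPM. Every acute and fibrosis library was below every healthy one, although the lowest healthy library lay close. The cirrhosis libraries ran from 489 CPM through a median of 877 CPM to 1598 CPM. All of them lay above every fibrosis library and above the healthy median, and the highest exceeded every healthy library.

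Klf4 (ENSRNOG00000016299) was 6.77-fold lower in acute injury than in healthy LSECs (log2 fold change -2.76, SE 0.45, adjusted p = 0.0001263) and 4.15-fold lower in fibrosis (log2 fold change -2.05, SE 0.41, adjusted p = 0.0006775). Between cirrhosis and healthy the log2 fold change was 0.79 (95% interval -0.14 to 1.72, adjusted p = 0.1315), which was not called. Without healthy replicate 5, the healthy library with the highest Klf4, it was 1.06 and passed the thresholds (adjusted p = 0.02912). With all libraries and library size alone it was 1.13 and also passed them (adjusted p = 0.0468). Klf4 was 7.44-fold higher in cirrhosis than in fibrosis (log2 fold change 2.90, SE 0.25, adjusted p = 5.837e-07) and 11.9-fold higher than in acute injury (log2 fold change 3.57, SE 0.33, adjusted p = 5.909e-07). It was also 1.69-fold higher in fibrosis than in acute injury (log2 fold change 0.76, SE 0.24, adjusted p = 0.04657), but without acute replicate 4 the call was lost at a log2 fold change of 0.56 (adjusted p = 0.07658).

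**Figure D1:**
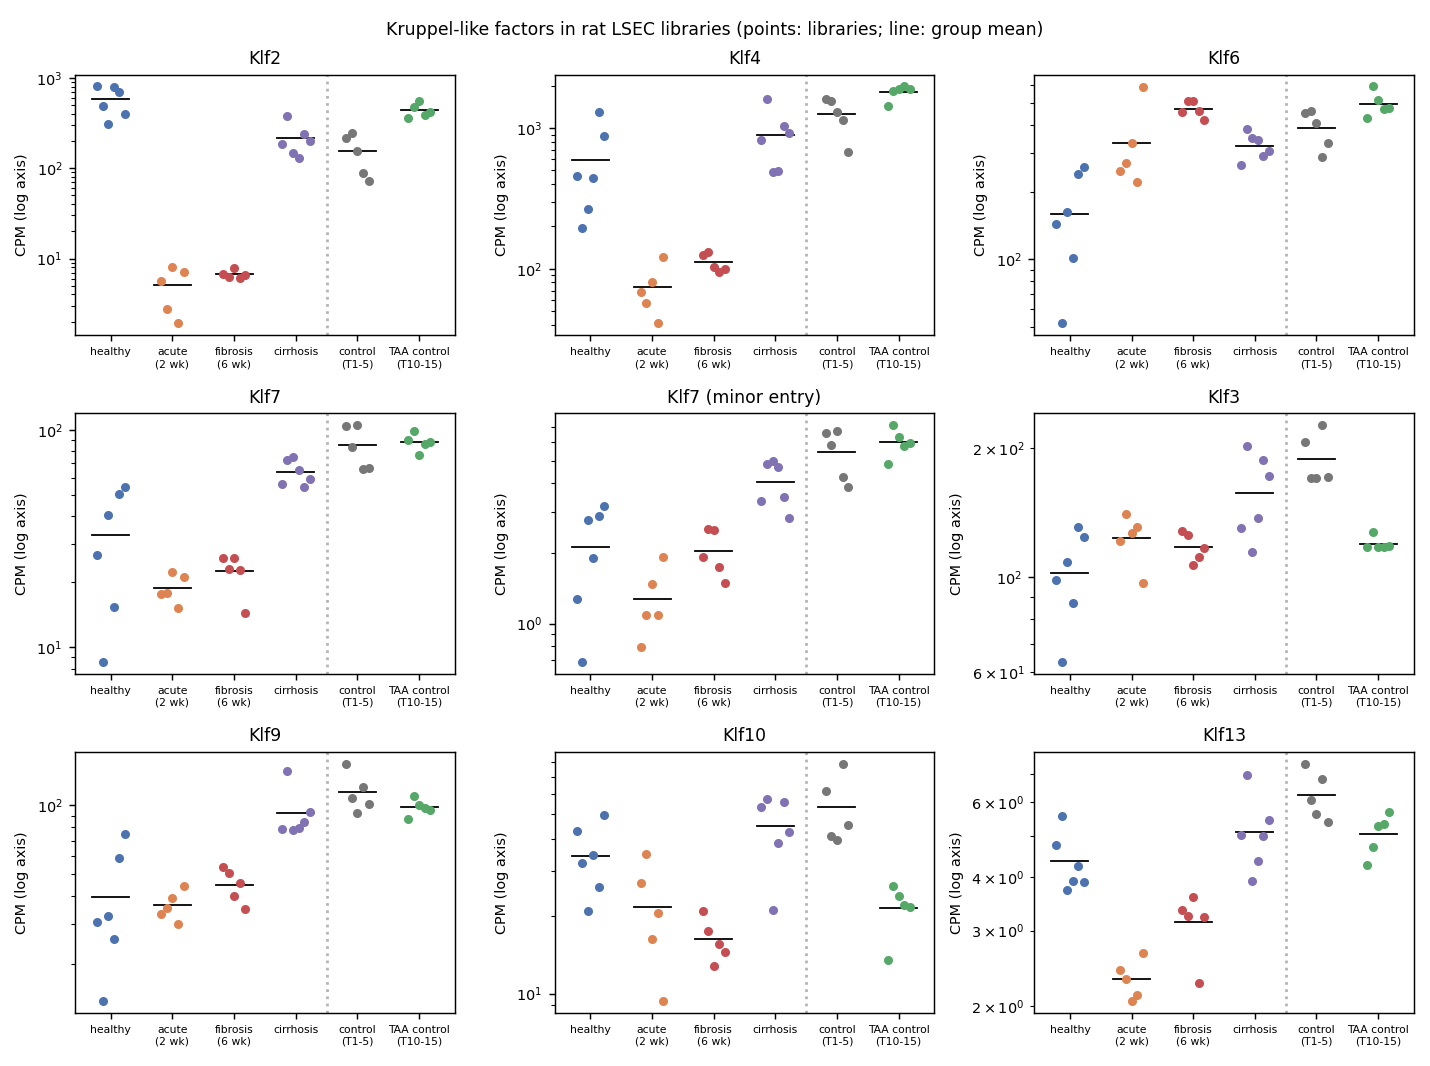
Level of each Kruppel-like factor entry in every library, in CPM on a log axis with its own range in each panel, with the 4 CCl4 groups left of the dotted line and the 2 groups of the TAA experiment right of it. Points are libraries and lines are group means. Klf2 lies at 1.93 to 8.001 CPM in acute injury and fibrosis against 313 to 808 CPM in healthy libraries, while Klf6 is lowest in the healthy group.

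Because Klf2 and Klf4 fell by different amounts, the log2 ratio of their expected counts within each library changed, and this ratio does not depend on how libraries are scaled. It is given as a description. The ratio ran from -1.16 to 1.33 in healthy libraries with a median of 0.53, from -4.41 to -3.34 in acute injury and from -4.38 to -3.71 in fibrosis. In cirrhosis it was -2.20 to -1.73, between the injured and the healthy ranges and overlapping neither. Cirrhotic LSECs thus held more Klf2 relative to Klf4 than acute or fibrotic ones and less than healthy ones, in every library. The Klf4 over Klf6 ratio behaved differently. It was 0.72 to 2.42 in healthy, -2.43 to -1.86 in acute injury, -2.32 to -1.85 in fibrosis and 0.49 to 2.06 in cirrhosis, where the range overlapped the healthy one.

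**Figure D2:**
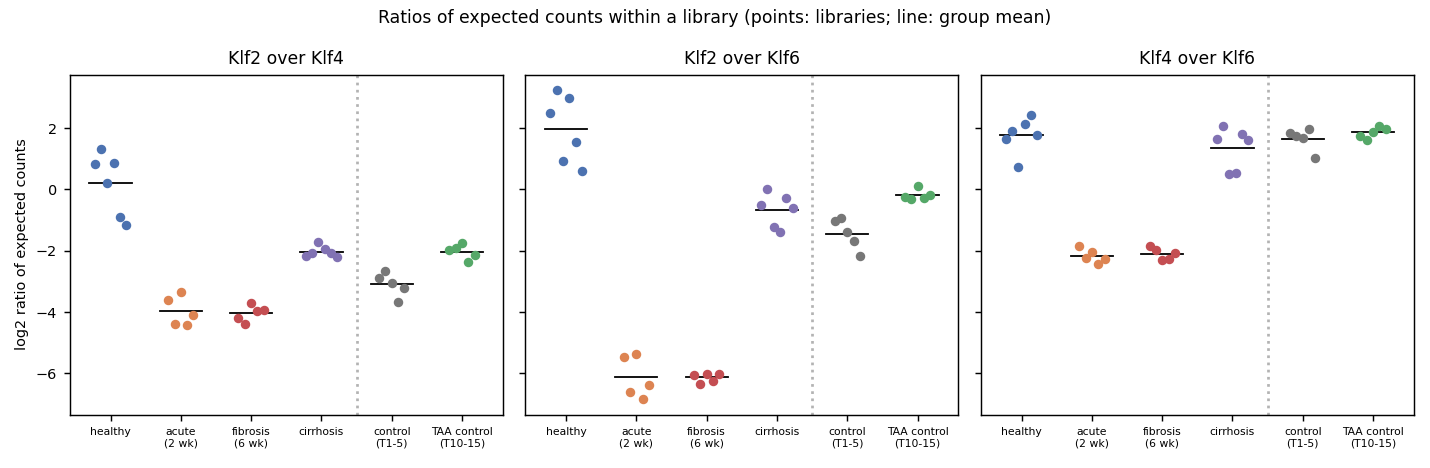
Log2 ratio of the expected counts of 2 Kruppel-like factors within each library, with points for libraries and lines for group means. The Klf2 over Klf4 ratio in cirrhosis (-2.20 to -1.73) lies between the acute and fibrosis libraries and the healthy libraries, whereas the Klf4 over Klf6 ratio in cirrhosis (0.49 to 2.06) overlaps that of healthy libraries.

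Klf6, the injury-response factor, was the member that rose in acute injury, fibrosis and cirrhosis alike. The healthy libraries had 51.9 CPM at the lowest, 154 CPM at the median and 260.3 CPM at the highest. The acute libraries had 249, 269, 332, 221 and 589 CPM. The fibrosis libraries had 454, 511, 511, 463 and 419 CPM, all above every healthy library. In cirrhosis the values were 263 CPM at the lowest, 324 CPM at the median and 383 CPM at the highest, also above every healthy library, by a small margin at the lower end. Acute injury overlapped with the healthy group in 2 libraries. Klf6 (ENSRNOG00000016885) was 2.27-fold higher in acute injury than in healthy (log2 fold change 1.18, SE 0.40, adjusted p = 0.01649), 3.50-fold higher in fibrosis (log2 fold change 1.81, SE 0.35, adjusted p = 0.0005326) and 2.29-fold higher in cirrhosis (log2 fold change 1.20, SE 0.32, adjusted p = 0.006912). Cirrhosis lay below fibrosis without overlap, at a log2 fold change of -0.56 (SE 0.10, adjusted p = 3e-04), which is under the fold threshold. It passed that threshold without cirrhosis replicate 2 (-0.60) or fibrosis replicate 17 (-0.61). Between cirrhosis and acute injury the log2 fold change was 0.04 (95% interval -0.44 to 0.52, adjusted p = 0.8799), and its sign turned to -0.05 with library size alone. Fibrosis was 1.59-fold above acute injury at an unadjusted p of 0.01307 from limma (adjusted p = 0.05854), a call that was lost without acute replicate 4 (log2 fold change 0.55, adjusted p = 0.113).

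Of the 8 symbols, 5 had a promoter in the RefSeq table of the GRCr8 build (Klf3, Klf4, Klf6, Klf7 and Klf9), which is a later build than the Rnor_6.0 genome of the counts. Klf6 and Klf9 are shown because they are the members with the highest level relative to healthy in fibrosis and in cirrhosis respectively. Each sequence is the 250 bases before the annotated start, read on the gene's own strand. Klf6 lies on the minus strand at chr17:69458479-69458728 and Klf9 on the plus strand at chr1:230126396-230126645. Capitals mark matches, on either strand, to CACCC (the box that Kruppel-like factors bind), GGGCGG (the GC box bound by Sp factors) and the CArG box (bound by serum response factor).
Klf6: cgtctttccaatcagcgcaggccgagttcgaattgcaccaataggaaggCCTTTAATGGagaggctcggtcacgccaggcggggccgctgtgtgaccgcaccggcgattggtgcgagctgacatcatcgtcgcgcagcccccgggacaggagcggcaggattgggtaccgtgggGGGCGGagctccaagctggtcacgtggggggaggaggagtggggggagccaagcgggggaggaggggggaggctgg
Klf9: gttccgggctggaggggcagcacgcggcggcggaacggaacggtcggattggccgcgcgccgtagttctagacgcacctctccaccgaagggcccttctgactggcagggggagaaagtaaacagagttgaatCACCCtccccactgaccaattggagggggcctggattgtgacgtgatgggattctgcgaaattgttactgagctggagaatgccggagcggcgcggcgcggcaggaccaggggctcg
The Klf6 window held 1 CArG box and 1 GGGCGG, and the Klf9 window held 1 CACCC. Among 33469 promoter windows of the same length, 49.2% held CACCC, 30.5% held GGGCGG and 1.5% held a CArG box. A match is a run of letters and does not show that a factor binds there.

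Klf9, a glucocorticoid-responsive repressor, and Klf7 were higher in cirrhosis than in every other CCl4 group. With all libraries and TMM, neither was called in acute injury or fibrosis against healthy. Klf9 was called in fibrosis with library size alone (log2 fold change 0.83, adjusted p = 0.06194, unadjusted p = 0.04695 from limma). Klf7 was called in acute injury without healthy replicate 2 (log2 fold change -0.86). Klf9 (ENSRNOG00000014215) had 13.9 to 74.7 CPM in healthy, 30.0 to 44.4 CPM in acute injury, 34.9 to 53.5 CPM in fibrosis and 77.8 to 142 CPM in cirrhosis. No cirrhosis library overlapped any library of the other CCl4 groups. The difference from healthy was 2.65-fold (log2 fold change 1.41, SE 0.33, adjusted p = 0.003198), that from fibrosis 2.03-fold (log2 fold change 1.02, adjusted p = 0.0001086) and that from acute injury 2.52-fold (log2 fold change 1.33, adjusted p = 1.048e-05). In acute injury against healthy the log2 fold change was 0.10 (95% interval -0.67 to 0.87), and its sign turned under edgeR's quasi-likelihood test (-0.08) and without healthy replicate 2 (-0.17).

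Klf7 is listed as ENSRNOG00000046242 and, with 4.27% to 11.1% of the counts of both entries together, as ENSRNOG00000012961. Expected counts of these entries are not whole numbers in 30 of 32 libraries, so reads were shared between them and the split is uncertain. The larger entry had 8.59 to 54.5 CPM in healthy, with the lowest library far below the highest, 15.2 to 22.2 CPM in acute injury, 14.4 to 25.8 CPM in fibrosis and 54.5 to 75.2 CPM in cirrhosis. It was 2.35-fold higher in cirrhosis than in healthy (log2 fold change 1.23, SE 0.38, adjusted p = 0.01333), 2.90-fold higher than in fibrosis (log2 fold change 1.54, adjusted p = 1.547e-06) and 3.44-fold higher than in acute injury (log2 fold change 1.78, adjusted p = 7.87e-08). Against healthy the lowest cirrhosis library and the highest healthy library both stood near 54.5 CPM. The smaller entry rose with it, by a log2 fold change of 1.07 in cirrhosis against healthy (adjusted p = 0.01522), and the sum of both gave 1.22 (adjusted p = 0.01296). In acute injury against healthy the log2 fold change of the larger entry was -0.52 (adjusted p = 0.2847). Without healthy replicate 2, the healthy library with the lowest Klf7, it was -0.86 and passed the thresholds (adjusted p = 0.02808). In fibrosis against healthy it was -0.25 (adjusted p = 0.6224), with the sign turned to 0.15 by library size alone.

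Klf3, a CtBP-dependent repressor, varied least. Its group ranges were 63.5 to 131 CPM in healthy, 96.9 to 141 CPM in acute injury, 107 to 128 CPM in fibrosis and 114 to 202 CPM in cirrhosis, and every pair of CCl4 groups overlapped. Klf3 (ENSRNOG00000002163) was called in cirrhosis against healthy alone, at 1.56-fold (log2 fold change 0.64, SE 0.19, adjusted p = 0.01311). That fold is just past the threshold, and the call was lost without healthy replicate 2 (log2 fold change 0.51), cirrhosis replicate 2 (0.54) or cirrhosis replicate 5 (0.58), with adjusted p from 0.0282 to 0.0338. With library size alone Klf3 was also called in acute injury (log2 fold change 0.74) and fibrosis (0.70).

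Klf10, the TGF-beta-inducible factor, and Klf13 were the other members that were lower in injury. Klf10 (ENSRNOG00000006118) had 21.0 to 49.7 CPM in healthy, 9.38 to 35.1 CPM in acute injury, 12.8 to 20.9 CPM in fibrosis and 21.2 to 57.5 CPM in cirrhosis. Its difference from healthy was 1.97-fold in fibrosis (log2 fold change -0.98, SE 0.24, adjusted p = 0.002926), and every fibrosis library was below the healthy median. The highest fibrosis value and the lowest healthy value nearly coincided. With library size alone the fibrosis difference was -0.58 and was no longer called (adjusted p = 0.07229). In acute injury the log2 fold change was -0.71 (adjusted p = 0.06503), which was not called. Leaving out acute replicate 1 or 2 or healthy replicate 3 or 5 brought it past the thresholds, with log2 fold changes of -0.89 to -0.79. With all libraries it was also called under upper-quartile scaling (-0.78), a filter at 1 CPM (-0.73) and a single fit over the CCl4 libraries (-0.74). With library size alone it was -0.30 and not called (limma adjusted p = 0.4628). Cirrhosis was 2.64-fold above fibrosis (log2 fold change 1.40, adjusted p = 0.00038) and 2.14-fold above acute injury (log2 fold change 1.09, adjusted p = 0.008757).

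Klf13 (ENSRNOG00000015822) was at low levels throughout, with at least 74 expected counts per library. It had 3.73 to 5.58 CPM in healthy, 2.06 to 2.65 CPM in acute injury, 2.27 to 3.59 CPM in fibrosis and 3.91 to 6.93 CPM in cirrhosis. Acute injury lay below every healthy library, at 1.83-fold (log2 fold change -0.88, SE 0.20, adjusted p = 0.001654), while fibrosis was not called (log2 fold change -0.41, adjusted p = 0.07238). Fibrosis against acute injury stood at 0.51 (adjusted p = 0.04815), under the fold threshold, and passed it without fibrosis replicate 16 (0.62, adjusted p = 0.02519). With library size alone the acute difference was -0.46 and was no longer called. Cirrhosis was 1.63-fold above fibrosis (log2 fold change 0.71, adjusted p = 0.003409) and 2.20-fold above acute injury (log2 fold change 1.14, adjusted p = 0.0001023).

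Counted together, 4 of 9 entries were DEGs in acute injury against healthy, where 74.1% of all genes tested were, with Klf6 higher and Klf2, Klf4 and Klf13 lower. In fibrosis against healthy 4 of 9 were DEGs against 71.2% of all genes, with Klf6 higher and Klf2, Klf4 and Klf10 lower. These counts are below the background shares. With library size alone the entries called were 2 higher and 2 lower in acute injury and 3 higher and 2 lower in fibrosis, so the balance of directions against healthy depends on the scaling. All genes shifted upward too, to 6200 higher and 4491 lower in acute injury and 6311 and 4085 in fibrosis. In cirrhosis against healthy 6 of 9 were DEGs against 54.5% of all genes, of which 5 were higher (28.8% of all genes) and Klf2 was lower (25.7% of all genes). With library size alone 8 were called there, 7 higher and 1 lower, beside 5921 of all genes higher and 2393 lower. Cirrhosis against fibrosis and cirrhosis against acute injury each had 7 of 9 entries called, beside 64.2% and 69.7% of all genes, and all 7 were higher, as 34.5% and 37.8% of all genes were, while library size alone added Klf6 as lower in cirrhosis against fibrosis. Klf7 makes up 2 of the 9 entries, both higher in these 3 comparisons of cirrhosis. With its entries summed, 5 genes were called in cirrhosis against healthy (4 higher, 1 lower). Cirrhosis against fibrosis and against acute injury then had 6 called each. Fibrosis against acute injury had 3 of 9 higher (Klf4, Klf6 and the smaller Klf7 entry) against 15.7% of all genes called and 14.3% called higher, and only Klf4 of these kept an adjusted p under 0.05 in limma, as 11% of all genes did. The median log2 fold change over the 9 entries was -0.61, -0.25 and 0.79 for acute injury, fibrosis and cirrhosis against healthy, beside -0.09, -0.03 and 0.07 over all genes. On the scaling of each pair of groups, entries without overlap with healthy were 3 in acute injury (60.4% of all genes), 3 in fibrosis (59% of all genes) and 3 in cirrhosis (27.2% of all genes). Those without overlap were 8 in cirrhosis against fibrosis (63.3% of all genes), 6 in cirrhosis against acute injury (66% of all genes) and 0 in fibrosis against acute injury (14% of all genes).

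**Figure D3:**
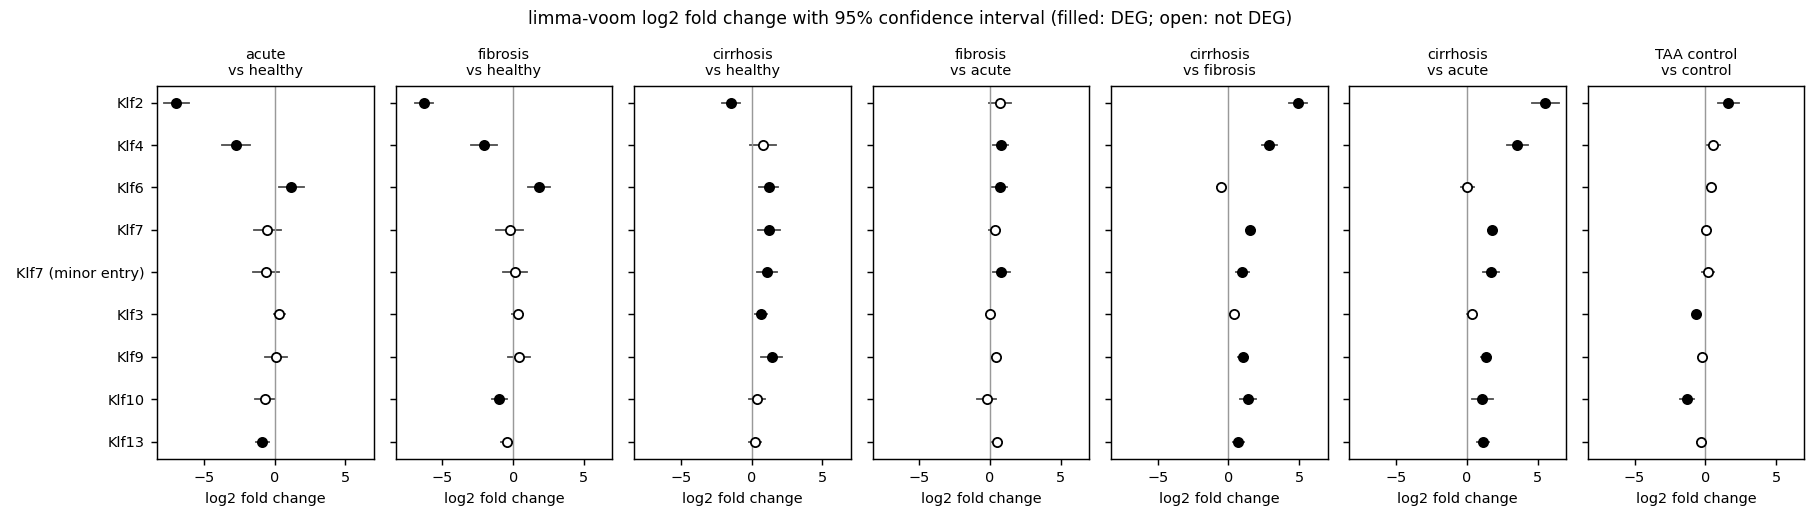
Log2 fold change of each entry in the 7 comparisons with its 95% confidence interval, on the same axis in every panel. Filled points are DEGs and open points are not. Klf2 at -6.95 and -6.29 lies farthest from 0 in acute injury and fibrosis, and in cirrhosis against fibrosis 7 entries lie above 0 as DEGs.

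The genes of the flow pathway upstream of Klf2 and Klf4 moved in both directions. Of 13 members, 5 were higher and 6 lower in acute injury against healthy, 4 and 6 in fibrosis, and 5 and 6 in cirrhosis. Over all genes, 35.8% were higher and 38.3% lower in acute injury, 35.8% and 35.4% in fibrosis, and 28.8% and 25.7% in cirrhosis, so the share of the pathway called (11 of 13 and 10 of 13 beside 74.1% and 71.2%) was close to the background in acute injury and fibrosis. In cirrhosis 11 of 13 were called, in both directions, beside 54.5% of all genes. Map2k5, which encodes the kinase MEK5, fell in all 3, with log2 fold changes of -1.97, -1.89 and -0.89. Mef2c, a MEF2 factor, fell in acute injury (-2.002) and fibrosis (-1.78) and rose in cirrhosis (1.06). Mapk7, which encodes ERK5, rose in acute injury (0.72) and fell in cirrhosis (-0.74). Hdac5 and Hdac7, class IIa deacetylases that restrain MEF2 factors, fell in all 3, by 2.99 and 2.98 on the log2 scale in acute injury. Krit1, whose product restrains MEKK3 signalling, rose by 3.22, 3.08 and 1.70 on that scale.

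Of 7 genes known to be induced by Klf2 or Klf4, 6 were lower in acute injury and in fibrosis and none was higher, beside 38.3% and 35.4% of all genes lower. Nos3 fell with log2 fold changes of -4.93 and -4.99, Thbd with -3.83 and -4.67 and Gja4, a gap junction gene of arterial endothelium, with -6.59 and -4.91. In cirrhosis only Nos3 (-1.32) and Ass1 (-2.04), which encodes argininosuccinate synthase, were lower, beside 25.7% of all genes. Thbd (-0.18, adjusted p = 0.45) and Gja4 (-0.57, adjusted p = 0.06063) were not called there. Ass1 spread from 84.8 to 1889 CPM over the healthy libraries, where hepatocyte markers summed to 1296 to 27548 CPM. The part of hepatocyte RNA in the Ass1 difference was not tested. S1pr1, a receptor of the same list, was called in none of the 3. Of 8 genes known to be lowered by Klf2 or Klf4, 4 were higher and 4 lower in acute injury, 4 and 3 in fibrosis, and 5 higher and none lower in cirrhosis. Over all genes, 35.8%, 35.8% and 28.8% were higher in these comparisons. Edn1, the vasoconstrictor endothelin 1, rose by 0.78, 1.26 and 1.36 on the log2 scale. Vcam1 and Sele, leukocyte adhesion genes, fell in acute injury (-3.82 and -2.96) and in fibrosis (-1.24 and -1.18). In cirrhosis Sele rose (2.74) and Vcam1 was not called (0.68, adjusted p = 0.0912). Tek is also an LSEC marker of the list used here, as is Kdr, so these lists are not separate from the marker list.

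Of 5 glucocorticoid-induced genes, 4 were lower in acute injury and in fibrosis against healthy, with Per1 at -3.38 and -3.20 and Tsc22d3 at -3.38 and -2.91, whereas Fkbp5 was higher in acute injury (0.85). In cirrhosis against healthy Per1 was lower (-1.32) and Fkbp5 higher (0.67). In cirrhosis against fibrosis and against acute injury, where Klf9 was higher, 4 of the 5 were higher and none lower. Over all genes, 34.5% and 37.8% were higher there. Of 9 further Kruppel-like genes, 5 passed the filter in acute injury and in fibrosis and 6 in cirrhosis. Klf5 rose by 2.33, 4.19 and 1.42 on the log2 scale, from a low level of 0.250 to 0.937 CPM in healthy. Its ranges in acute injury (0.691 to 4.74 CPM) and cirrhosis (0.688 to 1.36 CPM) overlapped the healthy one, and fibrosis had 5.39 to 12.9 CPM. Klf12 fell in acute injury and fibrosis (-3.27 and -2.10) and rose in cirrhosis (0.79), and Klf15 did the reverse (0.72, 0.65 and -0.93). Klf17 was at 0 in every library. Of 9 Sp factors, 4, 5 and 4 were tested in acute injury, fibrosis and cirrhosis against healthy, with 2, 3 and 2 higher and 1 lower in each. Of 8 genes of the co-repressors and ubiquitin ligases that act with or on these factors, 4, 3 and 4 were higher and 0, 1 and 2 lower. Against healthy, 35.8%, 35.8% and 28.8% of all genes were higher in acute injury, fibrosis and cirrhosis, and 38.3%, 35.4% and 25.7% lower.

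Immediate-early and stress genes moved with Klf2. This list holds 16 genes such as Fos, Jun, Atf3 and Hspa1b, which respond within minutes to growth factors, stress or tissue digestion and do not include the members. In acute injury 16 of 16 were lower than in healthy, in fibrosis 15 and in cirrhosis 8, and none was higher. Over all genes, 38.3%, 35.4% and 25.7% were lower in these comparisons. Hspa1b in fibrosis, at 1753 to 3222 CPM, lay within its healthy range of 927 to 4387 CPM. Their summed level was 50887 to 84332 CPM in healthy, 1669 to 5335 CPM in acute injury, 4805 to 7725 CPM in fibrosis and 25080 to 49918 CPM in cirrhosis, and the groups stood in the same order by median as for Klf2. Most LSEC markers moved with Klf2 in acute injury and fibrosis, where 7 and 8 of 9 tested were lower. Cdh5 had 1324 to 2154 CPM in acute injury and 887 to 1210 CPM in fibrosis, beside 775 to 1763 CPM in healthy. Lyve1 in acute injury, at 681 to 1161 CPM, lay within its healthy range of 498 to 2289 CPM. The summed median of the 9 markers was higher in acute injury (4055 CPM) than in fibrosis (3096 CPM), unlike that of Klf2. In cirrhosis 1 marker was higher and 2 lower, with a range of sums that overlapped the healthy one. The part of either list in the Klf2 and Klf4 differences was not tested.

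**Figure D4:**
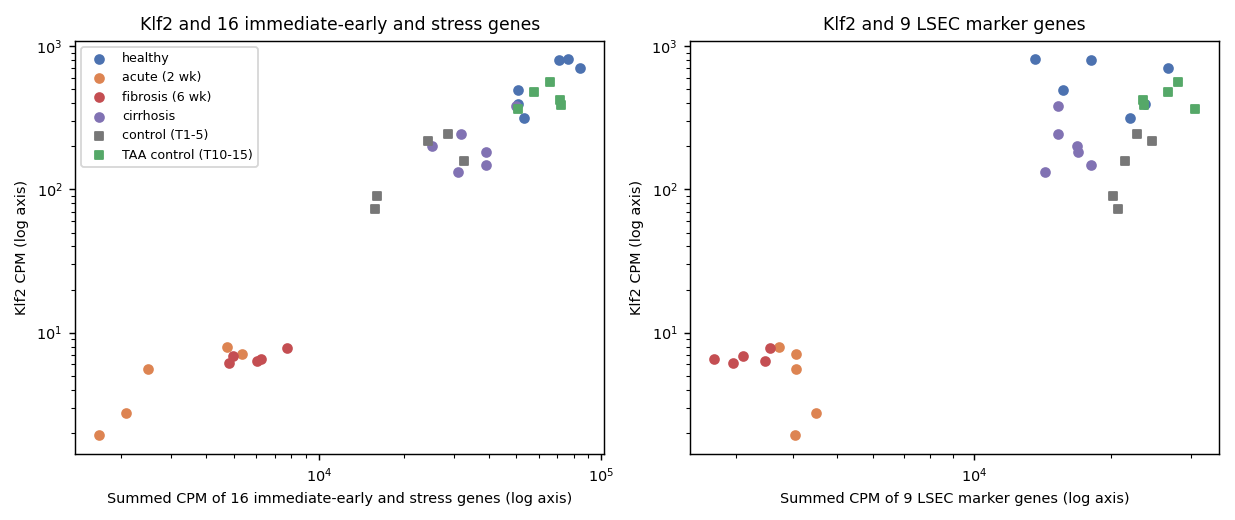
Klf2 level in each library, in CPM on a log axis, against the summed CPM of 16 immediate-early and stress genes (left) and of 9 LSEC markers (right), both on log axes, with circles for the CCl4 experiment and squares for the TAA experiment. All 10 acute and fibrosis libraries lie below 10 CPM of Klf2 at the low end of both sums, at most 7725 CPM on the left and 4489 CPM on the right.

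Markers of other liver cells differed between the groups as well. Against healthy, 35.8%, 35.8% and 28.8% of all genes were higher in acute injury, fibrosis and cirrhosis, and 38.3%, 35.4% and 25.7% lower. Hepatocyte markers summed to 1296 to 27548 CPM in healthy, 145 to 919 CPM in acute injury, 1308 to 5148 CPM in fibrosis and 2984 to 14449 CPM in cirrhosis, with 8, 5 and 3 of 8 lower in the 3 comparisons with healthy. Macrophage markers were lower in 8 of 8 in acute injury and fibrosis, with sums of 292 to 2862 CPM in healthy, 71.3 to 215 CPM in acute injury, 30.2 to 189 CPM in fibrosis and 681 to 2454 CPM in cirrhosis. Stellate markers summed to 282 to 783 CPM in healthy, 1313 to 2132 CPM in acute injury, 1279 to 1704 CPM in fibrosis and 622 to 1919 CPM in cirrhosis, but the sums in acute injury and fibrosis are mostly those of Reln, at 1306 to 2124 CPM and 1174 to 1570 CPM against 118 to 216 CPM in healthy. Of the 8 stellate markers, 1 was higher (Reln) and 6 lower in acute injury, with Col3a1 at -5.54 and Des at -4.59 on the log2 scale, 3 were higher and 3 lower in fibrosis, and 6 were higher and none lower in cirrhosis. Cholangiocyte markers summed to at most 108 CPM, lymphocyte markers to at most 189 CPM and neutrophil markers to at most 45.1 CPM in the CCl4 libraries. Of the cholangiocyte markers 4, 4 and 6 were tested in acute injury, fibrosis and cirrhosis, with 1, 2 and 4 higher and 2, 2 and 0 lower. Of the lymphocyte markers 5, 5 and 7 were tested, with 5, 3 and 2 lower and 2 higher in cirrhosis, and of the neutrophil markers 1, 1 and 3 were tested, with 1 lower each time and 2 higher in cirrhosis. Their part in the differences of the Kruppel-like factors was not tested.

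In the TAA experiment Klf2 was again the member with the largest difference. The control libraries had 219, 244, 157, 89.5 and 73.0 CPM, and the libraries labelled TAA control had 363, 481, 559.8, 388 and 423 CPM. The groups did not overlap, and the TAA control libraries were 3.10-fold higher (log2 fold change 1.63, SE 0.32, adjusted p = 0.001967). Klf10 differed the other way, from 39.5 to 78.4 CPM in control to 13.6 to 26.2 CPM in TAA control, 2.44-fold lower without overlap (log2 fold change -1.29, SE 0.23, adjusted p = 0.0009318). Klf3 was also lower without overlap, at 170 to 226 CPM in control and 117 to 127 CPM in TAA control (log2 fold change -0.65, SE 0.09, adjusted p = 0.0002247). Its fold of 1.57 is near the threshold, and without control replicate 4 the log2 fold change was -0.58 and the call was lost (adjusted p = 0.0003203). With these 3 of 9 entries called, against 29.4% of all genes, the share of members was close to the background, and the same 3 entries had no overlap, against 35.4% of all genes.

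Klf4 had 1607, 1556, 1309, 1134 and 680.4 CPM in the control libraries and 1430, 1829, 1898, 1981 and 1884 CPM in the TAA control libraries. The groups overlapped through TAA control replicate 10, and the log2 fold change of 0.57 (adjusted p = 0.04465) was under the fold threshold by a small margin. Leaving out control replicate 1, 2 or 3 or TAA control replicate 10 raised it to between 0.60 and 0.68, past the thresholds. Klf6 stood at 0.37 (adjusted p = 0.04821), also under it. Klf7 (0.07, adjusted p = 0.7022), Klf9 (-0.21, adjusted p = 0.1744) and Klf13 (-0.30, adjusted p = 0.06449) were not called, and the sign of Klf7 turned to -0.01 without control replicate 4 or 5. The Klf2 over Klf4 log2 ratio was -3.66 to -2.67 in control and -2.35 to -1.76 in TAA control, without overlap.

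Other gene lists differed between these groups too, where 13.5% of all genes were higher and 15.9% lower in TAA control. Immediate-early and stress genes were higher in TAA control for 14 of 16, with sums of 15838 to 32551 CPM in control and 50661 to 72276 CPM in TAA control. Stellate markers were lower for 7 of 8, with sums of 2085 to 5147 CPM against 344 to 537 CPM, and hepatocyte markers were lower for 6 of 8, with 2213 to 5471 CPM against 646 to 1453 CPM. LSEC markers were higher for 2 of 9, at 20147 to 24636 CPM against 23506 to 30627 CPM. Macrophage markers were higher for 3 of 8, lymphocyte markers for 2 of 3 tested and the neutrophil marker tested was higher, and cholangiocyte markers were lower for 5 of 5 tested. Their part in the differences of Klf2, Klf3 and Klf10 was not tested. Of the genes induced by Klf2 or Klf4, 2 of the 6 tested were lower (Thbd and Gja4) and none was higher, while Klf2 was higher and Klf4 was not called, and of the 8 lowered genes 1 was higher and 5 lower. Of the 13 flow pathway genes 1 was lower and none higher.

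The genes whose profile over the 22 CCl4 libraries was most like that of each member were found among 8527 genes by the root mean square difference of log2 CPM, each gene centred on its own mean. For Klf2, whose own root mean square deviation was 2.98, the nearest were Lipe (0.48), which encodes hormone-sensitive lipase, Zfp36 (0.51), an mRNA-destabilizing protein of the immediate-early list, and Pcdh12 (0.55), an endothelial protocadherin. For Klf4 (own deviation 1.59) they were Akr1cl (0.45), Acer2 (0.48), an alkaline ceramidase, and Lifr (0.50), the receptor of leukemia inhibitory factor. For Klf6 (0.80) they were Rsrc2 (0.20), Cep85l (0.21) and Zranb1 (0.24), a deubiquitinase. Klf7 (0.86) and Klf9 (0.73) shared the neighbour Msrb3, a methionine sulfoxide reductase, at 0.30 and 0.27. Their other neighbours were Pcmtd1 (0.32) and Lhfp (0.32) for Klf7 and Casp1 (0.25), the inflammatory caspase, and Mid2 (0.27) for Klf9. For Klf3 (0.35) they were Tmem123 (0.20), Dip2c (0.22) and Abracl (0.23), for Klf10 (0.72) Lta4h (0.42), Lipa (0.42), the lysosomal acid lipase, and Rnaset2 (0.43), and for Klf13 (0.42) Dgka (0.21) and Abr (0.23). For Klf3, Klf10 and Klf13 the distance to the nearest gene was more than 0.5 of the member's own deviation, so those likenesses were weak.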

How the data were processed

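LSEC libraries were made with a stranded mRNA kit and sequenced on a HiSeq2500. Per the study's methods, reads were aligned to Rnor_6.0 with STAR and quantified with RSEM, and the authors deposited expected counts per gene and library. Tool versions and the annotation release are not given in the sources used here. RSEM shares reads among similar genes, and 10.3% to 12.4% of all values of a library, zeros included, are not whole. Expected counts were rounded to whole numbers, filtered with filterByExpr, scaled by TMM and tested with limma-voom (limma 3.58.1, edgeR 4.0.16, R 4.3.3) in separate fits of each pair of groups. The thresholds (p under 0.05, fold above 1.5) and the test follow the study. Adjusted p-values are Benjamini-Hochberg over all genes tested. Depth was 25646531 to 46464289 expected counts per library. The alternatives were edgeR's quasi-likelihood test, DESeq2 1.42.0, other scalings, filters and thresholds, a single fit, a replicate block and leaving out each library. Summing the Klf7 entries and averaging TAA control replicates 14 and 15 were added after seeing the data. The fitting code was tested on simulated data.

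The members, the 15 gene lists and the tests were chosen with earlier results of these data known. Genes named in the text are the members, genes of those lists, and the 3 genes nearest to each member over the CCl4 libraries (pseudocount 0.5 CPM, mean log2 CPM of at least 3). Some genes that this rule names are not reported here. Motifs were searched on both strands in the 250 bases before each start.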

Additional observations from a re-analysis of the deposited data

Results flagged for a closer look

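In groups of 5 or 6 libraries, a library was marked when its distance to the nearest other library was a large share of the range of the group, by Dixon's ratio. Of 54 groups examined, 6 were marked, and chance marks about 1 group in 20, or 2.7 of 54. In the TAA control group, replicate 12 had 127.5 CPM of Klf3 against 118.4 CPM in the nearest library. Replicate 10 of that group had 1430 CPM of Klf4 against 1829 CPM in the nearest library, and 13.55 CPM of Klf10 against 21.69 CPM. In fibrosis, replicate 17 had 14.35 CPM of Klf7 against 22.76 CPM, and replicate 16 had 2.267 CPM of Klf13 against 3.238 CPM. In cirrhosis, replicate 2 had 141.6 CPM of Klf9 against 93.59 CPM.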

How the results depend on the processing

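Klf2, Klf4 and Klf6 against healthy in acute injury and fibrosis, and Klf2, Klf6, Klf7 and Klf9 in cirrhosis, kept their direction and call under every alternative run. Of 1397 fold changes of members under alternatives, 1330 kept their direction and side of the thresholds, 14 lost a call, 34 gained 1 and 19 changed sign. The adjusted p and the absent fold threshold, with 63 values each, reuse the same fit, so their direction could not change. Another 684 values come from leaving out 1 library, in fits that share nearly all libraries. No member was called where its sign changed. The number of members called moved most in fibrosis against acute injury, from 3 to 1 with the adjusted p, 5 with no fold threshold and 0 in a single fit over the CCl4 libraries, and in TAA control against control from 3 to 6 with no fold threshold. The number of all genes called in fibrosis against acute injury went from 2189 to 3358 with no low-count filter and 4968 with no fold threshold, and that in TAA control against control from 4228 to 8142 with no fold threshold.

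Leaving out 1 library gave 4 to 6 members in acute injury, 4 in fibrosis and 5 to 7 in cirrhosis against healthy, 1 to 4 in fibrosis against acute injury (1 without acute replicate 4), 7 to 8 in cirrhosis against fibrosis, 7 in cirrhosis against acute injury and 2 to 4 in TAA control against control. Over all genes, these fits called 10254 to 10722, 9956 to 10481 and 7467 to 8757 against healthy, in the same order. They called 2037 to 2595 in fibrosis against acute injury and 9383 to 9912 in cirrhosis against fibrosis. In cirrhosis against acute injury they called 10110 to 10650 genes, and in TAA control against control 3986 to 4436. Sign changes without 1 library covered Klf9 in acute injury against healthy (-0.17 to 0.43), Klf3 in fibrosis against acute injury (-0.065 to 0.066), Klf6 in cirrhosis against acute injury (-0.089 to 0.26), the smaller Klf7 entry in fibrosis against healthy (-0.15 to 0.26) and Klf7 in TAA control against control (-0.015 to 0.15). The other sign changes were Klf9 in acute injury with edgeR (-0.078) and DESeq2 (-0.0098), Klf3 in fibrosis against acute injury with no filter (-0.0032), in the single fit (-0.058) and with library size alone (-0.041), Klf6 in cirrhosis against acute injury with edgeR (-0.038) and library size alone (-0.050), and Klf7 in fibrosis with library size alone (0.15). The causes were not tested.

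Some groups share replicate numbers, but the rats differ and 2 of 4, 3 of 6 and 0 of 4 same-numbered pairs had deviations correlated above 0.1 in acute injury and cirrhosis against healthy and cirrhosis against acute injury. The replicate block was fitted only to libraries with shared numbers, which are replicates 1 to 4 of each group in the comparisons with acute injury. It called 5, 6 and 7 members, beside 10978, 7948 and 10091 of all genes. Without it, and with all libraries, 4, 6 and 7 members were called, beside 10611, 8058 and 10459 of all genes. Klf3 in acute injury stood at 0.68 with the block (limma adjusted p = 0.00631). The effect of the block and that of the smaller set of libraries on Klf3 were not told apart. Among the members, depth limits mainly Klf13 (at least 74 expected counts per library) and the smaller Klf7 entry (at least 19.9).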
